A study of Mus musculus with 12 samples.

Results

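The genes described here encode the subunits, assembly partners and activators of the proteasome in single cells of the mouse small intestine. They are the rows of the gene table whose symbol starts with Psma, Psmb, Psmc, Psmd or Psme followed by a digit and that had a value above 0 in at least 50 cells, which holds for 43 of 20090 genes. By role they are 7 alpha ring genes (Psma1 to Psma7), 7 constitutive beta ring genes (Psmb1 to Psmb7), the 3 immunosubunits Psmb8, Psmb9 and Psmb10, 6 ATPases (Psmc1 to Psmc6), 11 other lid and base genes, 3 base assembly chaperones (Psmd5, Psmd9, Psmd10) and 4 activators (Psme1 to Psme4). Psme2b, a copy of Psme2 with which it could exchange reads, and Psmc3ip, which is not a proteasome subunit, also match the symbol rule and were kept. Just inside the minimum lay Psme2b with 223 cells and Psmc3ip with 1021 cells, and just outside it lay Psma8, a germline alpha subunit, with 13 cells. Psme2b and Psmc3ip stayed under the level minimum used below, so 41 of the 43 were compared.

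The proteasome degrades ubiquitin-tagged proteins inside a barrel of stacked alpha and beta rings, and an ATPase-driven cap of lid and base subunits recognises, unfolds and feeds in the substrate. Psmb5, Psmb6 and Psmb7 carry the constitutive proteolytic sites. Under interferon signalling, and constitutively in many immune cells, the immunosubunits Psmb8, Psmb9 and Psmb10 take the places of Psmb5, Psmb6 and Psmb7 respectively in newly built particles, which changes the peptides available for MHC class I presentation. Psme1 and Psme2 together form the PA28 alpha-beta activator, Psme3 forms a separate nuclear activator and Psme4 encodes PA200.

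The study profiled sorted epithelial cells of adult mice of the strain Lgr5DTR-GFP, in which a diphtheria toxin receptor and GFP are placed at the stem cell gene Lgr5, with each intestine cut into 30 pieces that were tagged before pooling. The cells used here come from 8 samples labelled for diet types and sorted as CD45- and EpCAM+; the labels do not name the diets. All cells used here share the strain. The 27881 cells carry 8 barcode sets whose numbering does not match the sample titles, so the diet, animal and piece of each cell are not known here and the cells were treated as 1 pooled sample with no test and no p-value. The range over the 8 barcode sets is given as the spread; the sets hold 2286 to 5320 cells each, with median summed values of 4747.5 to 6147 per cell. The values are processed scores rather than raw counts, so sequencing depth is unknown and no counting interval is given. Levels are in ppm, parts per 1000000 of the summed values of a cell group. There were 78 barcodes that occurred in more than 1 set.

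After removal of 47 cells, clustering without the proteasome genes gave 19 clusters, of which 18 held at least 100 cells. Fixed marker lists named 9664 cells progenitor-like (clusters 0, 2, 8 and 10), 5262 enterocyte-like (clusters 7, 11, 12, 14 and 15), 1150 goblet-like (clusters 13 and 17), 146 gastric surface-like (cluster 16) and 30 enteroendocrine-like (cluster 18), and left 11582 cells, 41.6%, unnamed. Barcode sets were not spread evenly: 2687 of the 3162 cells of cluster 1 came from set 7, 881 of the 1048 cells of cluster 13 from set 4 and 1706 of the 4090 cells of cluster 0 from set 2. The name of cluster 0 is doubtful, since long noncoding RNAs lead it and its median mitochondrial share was 13.9%, and cluster 7 has no enterocyte marker among its 10 leading genes although 13 of 14 enterocyte markers mark it, while 1 of those 10, Ltc4s, is a listed marker of tuft cells. Cluster 14 was named from 3 of 14 enterocyte markers, with a list median of 0.22 on the log2 scale, and has none of them among its 10 leading genes. Results are therefore also given without these clusters where this matters. T cell markers summed to 0.941 ppm in progenitor-like and 2.00 ppm in enterocyte-like cells, with none of the 7 markers in the table at 10 ppm. They summed to 48.1 and 44.2 ppm in the unnamed clusters 1 and 4.

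Promoter windows of 5 genes are shown: the immunosubunits Psmb8 and Psmb9, the constitutive partners Psmb5 and Psmb6, and the PA28 gene Psme1. The windows of Psmb10 and Psme2 were also searched, hold no match and are not printed. The printed windows therefore do not give the share of windows with a match. Each is 300 bases from RefSeq on GRCm38.p6, 250 before and 50 after the annotated start, read 5′ to 3′ on the gene's strand, with motif matches in capitals. The motifs searched on both strands were GAAA, 2 bases of any kind and GAAA (interferon-stimulated), TTCNNNGAA (STAT), GGGA, 4 bases of any kind and CC (NF-kB) and TGACNNNGC (antioxidant response). Psmb8 lies at chr17:34197945-34198244 (plus strand), Psmb9 at chr17:34187281-34187580 (minus), Psmb5 at chr14:54617946-54618245 (minus), Psmb6 at chr11:70525107-70525406 (plus) and Psme1 at chr14:55578244-55578543 (plus).
Psmb8: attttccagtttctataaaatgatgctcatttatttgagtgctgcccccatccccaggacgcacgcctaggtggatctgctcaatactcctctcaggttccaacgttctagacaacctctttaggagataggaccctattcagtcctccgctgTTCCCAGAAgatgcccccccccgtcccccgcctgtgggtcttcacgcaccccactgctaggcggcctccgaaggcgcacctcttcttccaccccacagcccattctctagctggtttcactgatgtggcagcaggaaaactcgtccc
Psmb9: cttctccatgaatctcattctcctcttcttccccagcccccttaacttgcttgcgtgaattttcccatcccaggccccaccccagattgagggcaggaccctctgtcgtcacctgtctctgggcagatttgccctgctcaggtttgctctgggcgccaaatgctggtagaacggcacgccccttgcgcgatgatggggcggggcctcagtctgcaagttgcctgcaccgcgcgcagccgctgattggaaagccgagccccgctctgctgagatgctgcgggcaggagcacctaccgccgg
Psme1: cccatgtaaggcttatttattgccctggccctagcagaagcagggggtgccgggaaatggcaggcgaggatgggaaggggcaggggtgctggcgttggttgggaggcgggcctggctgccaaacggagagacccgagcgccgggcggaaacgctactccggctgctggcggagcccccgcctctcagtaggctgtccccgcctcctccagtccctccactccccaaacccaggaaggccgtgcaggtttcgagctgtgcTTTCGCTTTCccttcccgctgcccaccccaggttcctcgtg
Psmb5: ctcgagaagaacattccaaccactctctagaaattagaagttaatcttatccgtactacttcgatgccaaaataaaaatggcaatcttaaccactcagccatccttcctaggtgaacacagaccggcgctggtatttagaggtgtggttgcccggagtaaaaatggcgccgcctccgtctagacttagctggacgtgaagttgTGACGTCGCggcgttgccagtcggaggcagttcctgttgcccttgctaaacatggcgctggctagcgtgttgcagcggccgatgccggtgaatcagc
Psmb6: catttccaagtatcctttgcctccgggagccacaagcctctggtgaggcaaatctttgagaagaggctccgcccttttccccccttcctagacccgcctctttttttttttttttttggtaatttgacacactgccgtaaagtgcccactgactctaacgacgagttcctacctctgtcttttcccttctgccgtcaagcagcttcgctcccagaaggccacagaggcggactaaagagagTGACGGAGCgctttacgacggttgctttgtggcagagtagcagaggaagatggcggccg
In this window Psmb8 holds a STAT match, Psme1 an interferon-stimulated match, and Psmb5 and Psmb6 each an antioxidant-response match, while the windows of Psmb9, Psmb10 and Psme2 hold none of the 4 motifs. The Psmb9 window shares 275 bases with that of Tap1, the peptide transporter gene that is read from the opposite strand. In the GENCODE annotation of the same build Psmb8 runs from 34197721 to 34201454, Psmb9 from 34181987 to 34187764 and Psme1 from 55578123 to 55581529. Each of them thus also has a start outside its window.

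Windows were found for 37 members, 40 windows in all. The interferon-stimulated motif occurred in 4 of them (Psmd4, Psmd9, Psmb3 and Psme1), 10% against 3.44% of all 32851 windows. The STAT motif occurred in 2 (Psmd2 and Psmb8), 5% against 8.30%, and the NF-kB motif in 11, 27.5% against 20.7%. The antioxidant-response motif occurred in 6 (Psmb5, Psmb6, Psme4, Psmd9, Psmd12 and Psmc6), 15% against 12.4%. Alternative starts are part of both counts, and a match describes letters only.

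The core of 31 genes, that is the alpha ring, the constitutive beta ring, the ATPases and the lid and base genes, varied together across cell clusters. The summed immunosubunits followed another order, less clearly so for Psmb9. The summed core ranged from 1616 ppm in cluster 6, an unnamed cluster led by Ly6m and Clca4a, to 5092 ppm in the goblet-like cluster 17, whose leading genes include Agr2 and Spdef. Cluster 17 holds 102 cells, 66 of them from set 7, and only 2 sets had enough cells to give a level (4886 and 5216 ppm). These overlap the 4136 to 5120 ppm over 8 sets of cluster 5, an unnamed cluster led by Ros1 and Nkx6-3, whose pooled level was 4781 ppm. Of the 31 core genes, 16 were lowest in cluster 6, 18 were highest in cluster 17 and 7 were highest in cluster 5. The median Pearson correlation between pairs of core genes over the 18 clusters was 0.86, and the summed core followed the cluster's median number of detected genes with a correlation of 0.80; clusters share libraries, so these values are descriptions. In the same clusters the summed core and the summed immunosubunits correlated at 0.42. With the core gene that each replaces, Psmb8 correlated at 0.01 (Psmb5) and Psmb10 at 0.24 (Psmb7), but Psmb9 at 0.70 (Psmb6).

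**Figure D1:**
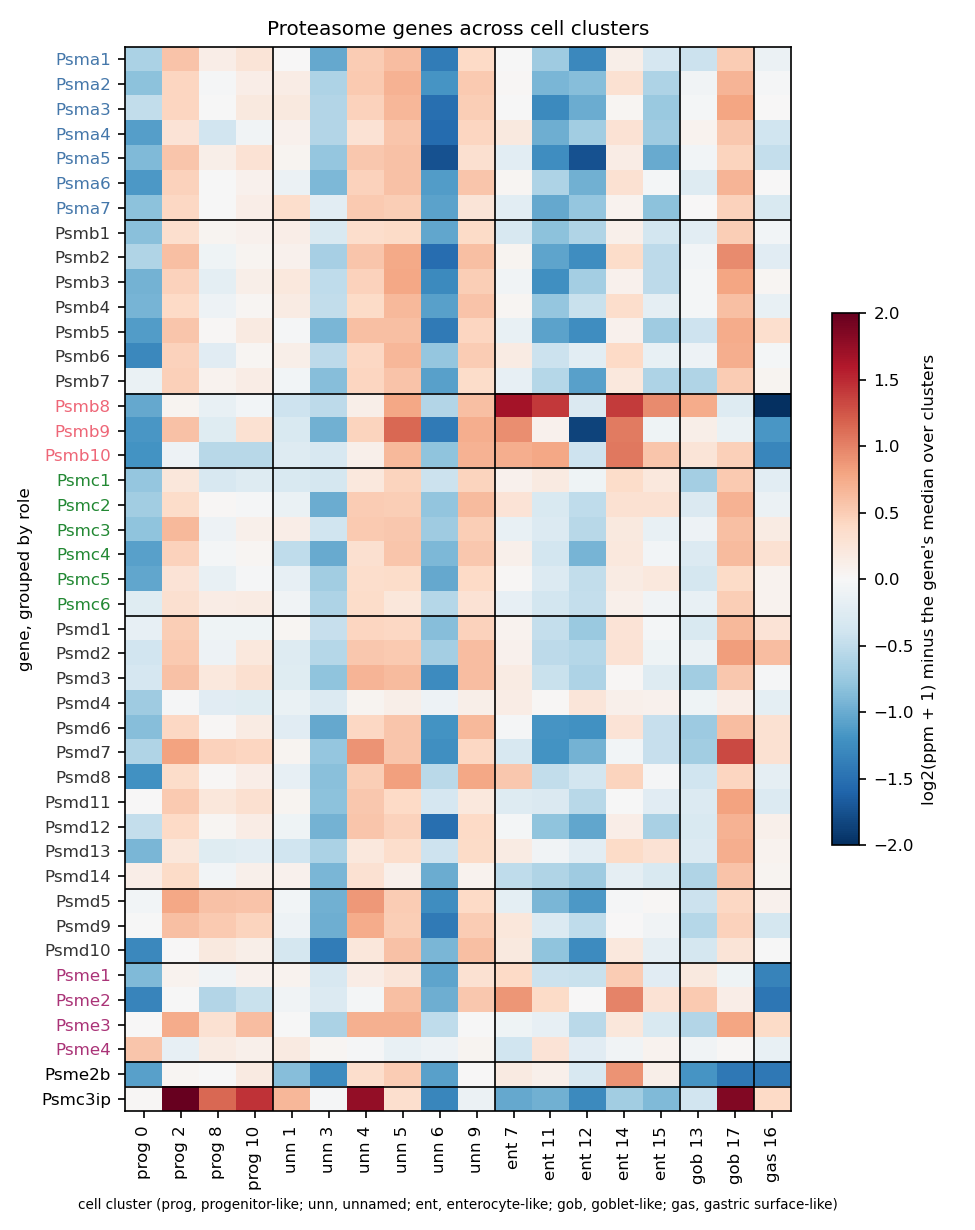
Each row is 1 of the 43 genes, grouped by role, and each column 1 of 18 cell clusters; colour is log2(ppm + 1) minus the gene's own median over clusters, limited to 2 in either direction. The core rows are blue together in cluster 6 and red together in clusters 5 and 17, whereas Psmb8 is reddest in enterocyte-like clusters 7, 11 and 14.

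The summed immunosubunits were highest in enterocyte-like cluster 14, led by Ms4a18 and Reg3a, at 427 ppm (354 to 503 ppm over 8 barcode sets). Cluster 7 followed at 401 ppm (358 to 426), cluster 11 at 349 ppm (262 to 433) and the unnamed cluster 5 at 334 ppm (281 to 397); the ranges of these neighbours overlap. The lowest sums were 64.3 ppm in gastric surface-like cluster 16 and 84.8 ppm in cluster 0. The highest cluster lay 1.01 above the median cluster on the log2 scale, and 0.96 above it without cluster 14, whose name is doubtful. Cluster 12, also enterocyte-like, stood apart from the other enterocyte-like clusters at 128 ppm (111 to 166 over the 6 sets with enough cells).

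Psmb8, which replaces Psmb5, had the widest range over clusters of all 43 genes, 4.55 on the log2 scale. Its level was 150 ppm in cluster 7, 125 ppm in cluster 11 and 124 ppm in cluster 14, against 5.45 ppm in cluster 16. The width of this range rests on cluster 16, where Psmb8 was under 10 ppm and above 0 in 2.05% of 146 cells. Over the 3 sets with enough cells its level there was 0 to 17.6 ppm. The next lowest level was 22.2 ppm, in cluster 0. Psmb9, which replaces Psmb6, was highest in the unnamed cluster 5 at 86.1 ppm, followed by cluster 14 at 79.6 ppm and cluster 7 at 73.3 ppm, and was lowest in cluster 12 at 9.86 ppm. Psmb10, which replaces Psmb7, was highest in cluster 14 at 223 ppm and lowest in cluster 16 at 42.5 ppm. Over clusters Psmb8 correlated with Psmb10 at 0.88 and with Psmb9 at 0.70.

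The genes least variable over clusters were Psmd4, a ubiquitin receptor of the cap, with a log2 range of 0.94, and the activator Psme4 with 0.95. Psme4 had its highest level, 187 ppm, in cluster 0 and its lowest, 96.1 ppm, in cluster 7. The PA28 genes Psme1 and Psme2 were both highest in cluster 14, at 371 and 393 ppm, and both lowest in cluster 16, at 103 and 72.0 ppm. The SD over clusters on the log2 scale had a median of 0.55 for the core, 0.89 for the immunosubunits and 0.71 for the 9180 genes at 10 ppm or more.

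The log2 ratio of each immunosubunit to the gene it replaces was read only as a difference between cell groups, because the capture of 2 genes need not be alike. The Psmb10/Psmb7 ratio was between 1.03 and 1.68 in all 5 enterocyte-like clusters and between -0.72 and -0.24 in all 4 progenitor-like clusters. The Psmb8/Psmb5 ratio was between -0.20 and 1.33 in the enterocyte-like clusters and between -1.66 and -1.06 in the progenitor-like clusters. For Psmb9/Psmb6 the enterocyte-like clusters spread from -3.39 in cluster 12 to -0.99 in cluster 7, on both sides of the progenitor-like span of -1.76 to -1.48.

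**Figure D2:**
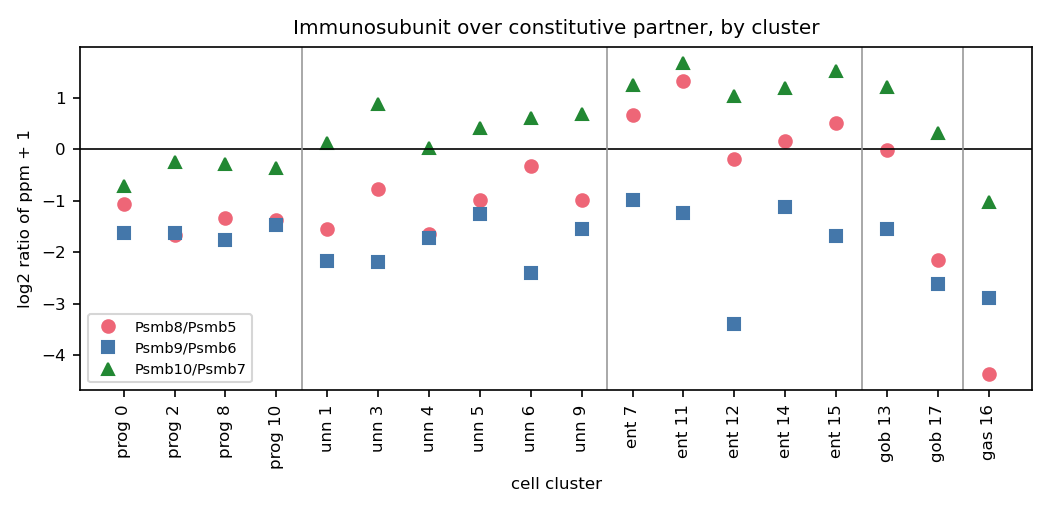
The log2 ratio of ppm + 1 for Psmb8/Psmb5, Psmb9/Psmb6 and Psmb10/Psmb7 (vertical axis) is shown in each of 18 clusters (horizontal axis, grouped by name). In enterocyte-like clusters the Psmb10/Psmb7 points lie above 0 in all 5 and the Psmb8/Psmb5 points in 4, whereas the Psmb9/Psmb6 points lie below 0 in all 5.

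Between progenitor-like and enterocyte-like cells, 2 immunosubunits and 1 PA28 gene were higher in the latter and most of the core was not called. For a gene to be called, the mean of the levels of both groups had to be at least 10 ppm. Its log2 difference, with 1 ppm added, had to be at least 0.5 in size, with the same sign in all 8 barcode sets. A set counted only where both groups held at least 20 of its cells, and all 8 did in the main comparisons. Called higher in enterocyte-like cells were 3 of the 41 genes, against 24.2% of the 9326 genes considered, and called lower were 7, against 44.7%. Most genes of these cells were called in one direction or the other, 68.9%, so a call by itself sets no gene apart. At a log2 difference of at least 1 in size, Psmb8, Psmb10 and Psme2 were called higher, against 16.4% of genes, and 0 members were called lower, against 32% of genes.

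Psmb8 had a lowest, median and highest level over the barcode sets of 30.6, 36.7 and 43.1 ppm in progenitor-like cells and of 88.7, 119 and 138 ppm in enterocyte-like cells. The ranges do not overlap, and the pooled level rose from 36.6 to 112 ppm, a log2 difference of 1.59 (1.10 to 2.13 over sets). Psmb10 had 36.2, 68.8 and 80.1 ppm against 146, 171 and 185 ppm, again without overlap, with a log2 difference of 1.20 (0.92 to 2.08). Psmb9 had 29.7, 35.2 and 48.5 ppm against 41.4, 56.2 and 66.6 ppm. Its ranges overlap, its log2 difference was 0.51 (-0.14 to 0.97), and it was not called because 1 of the 8 sets had the opposite sign.

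Of the activators, Psme2 had 105, 133 and 160 ppm in progenitor-like cells against 253, 298 and 357 ppm in enterocyte-like cells, with no overlap and a log2 difference of 1.19 (0.76 to 1.48). Psme1, its partner in PA28, was at 218 and 279 ppm, a log2 difference of 0.35 (0.02 to 0.81) that was not called. Psme3 was called lower, from 45.3 to 30.6 ppm (log2 difference -0.55), and Psme4 was at 150 and 116 ppm (-0.36, not called, although lower in all 8 sets).

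None of the 3 constitutive partners was called higher. Psmb5 was at 99.9 ppm in progenitor-like and 75.5 ppm in enterocyte-like cells (log2 difference -0.40, not called), Psmb6 at 113 and 132 ppm (0.22, not called) and Psmb7 at 93.4 and 65.6 ppm (-0.50, called lower). The ratio of Psmb8 to Psmb5 was thus 1.99 higher on the log2 scale in enterocyte-like cells (1.52 to 2.32 over sets, higher in 8 of 8). The ratio of Psmb10 to Psmb7 was 1.70 higher (1.27 to 2.39, 8 of 8). The ratio of Psmb9 to Psmb6 was 0.29 higher (-0.03 to 0.45, 7 of 8), and without cluster 7 this difference was -0.02.

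Of the 31 core genes, 0 were called higher and 5 lower, with a median log2 difference of -0.22 beside -0.39 for all genes considered. The 5 were Psma5 of the alpha ring (-0.60), Psmb7, and the lid genes Psmd7 (-0.79), Psmd11 (-0.54) and Psmd14 (-0.66), the last of which encodes the lid's deubiquitinase. None of the 6 ATPases was called, and their median was 0.07. The base chaperone Psmd5 was lower by the widest margin of the called members, from 28.0 to 15.4 ppm (-0.83). Median detected genes were 2528 in progenitor-like and 2349 in enterocyte-like cells.

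The number of core genes called depended on cluster 0. Without it 17 of the 31 core genes were called lower and 0 higher, against 47.2% and 23% of all genes, and the core median was -0.54 beside -0.46 for all genes. Psmb8 (1.28), Psmb10 (0.92) and Psme2 (0.87) were still called higher, while Psmb9 came to 0.10. Without cluster 7, 3 members were called higher, Psmb8 (1.27), Psmb10 (1.12) and Psme2 (1.01), and 9 lower, against 22.7% and 43.6% of all genes. With groups matched on detected genes 5 members were called higher and 3 lower, against 25% and 42.5% of all genes. With no rescaling the counts were 4 and 3, against 25.8% and 41.3%. The core median was -0.14 in both. Psmb8, Psmb10 and Psme2 were called higher in 20 of 20 settings, and Psmd5, Psmd7 and Psmd14 lower in 20 of 20. The 20 include the main setting and those that leave out each barcode set in turn. Leaving out a set cannot break the sign rule for a called gene, so the settings are not independent. The other lower calls held less often, Psma5 and Psmd11 in 17 of the 20 settings, Psme3 in 14 and Psmb7 in 12.

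**Figure D3:**
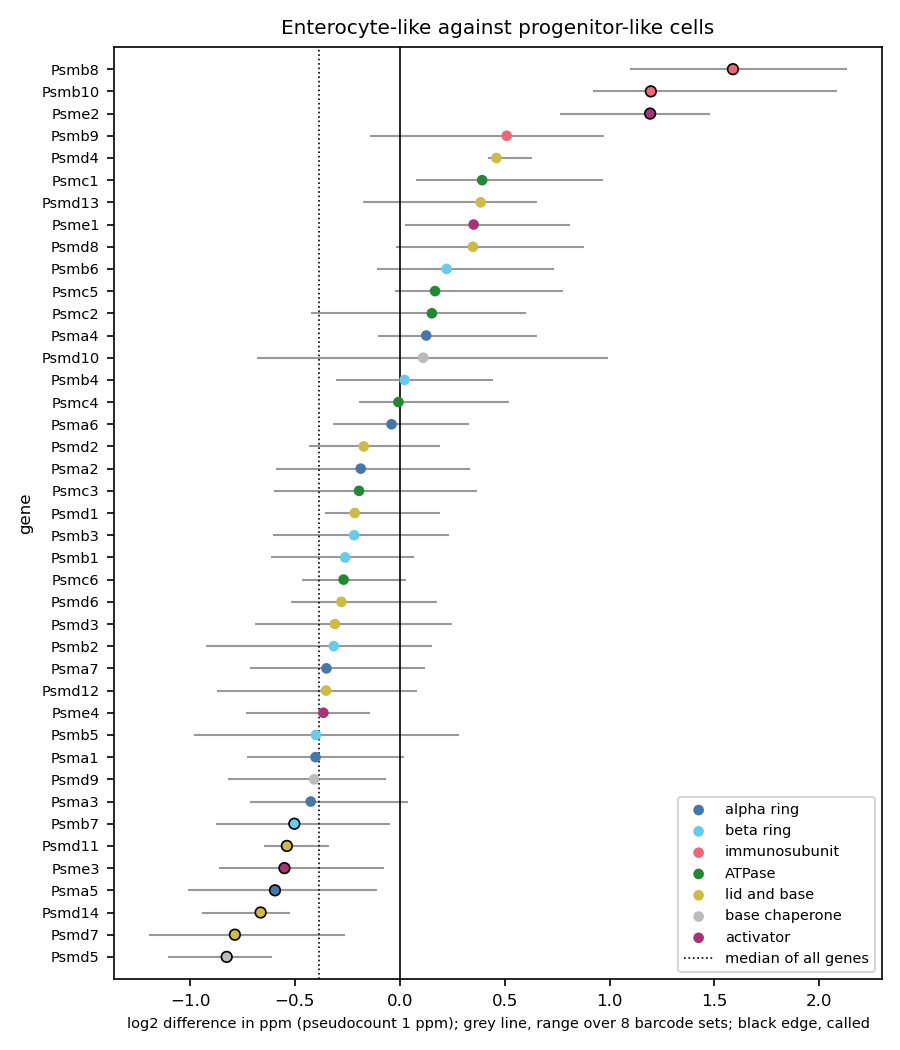
Points give the log2 difference in ppm, enterocyte-like minus progenitor-like, for the 41 genes at 10 ppm or more, coloured by role, with grey lines for the range over 8 barcode sets, black edges for called genes and a dotted line at the median of all genes, -0.39. Psmb8, Psmb10 and Psme2 stand at 1.59, 1.20 and 1.19, above all other members.

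Of 14 assembly and other proteasome factors at 10 ppm or more, 1 was called higher and 9 lower, against 24.2% and 44.7% of all genes, with a median of -0.96. The lower genes included Psmg2 (53.3 to 9.30 ppm, -2.40), Psmg3 (40.9 to 9.82 ppm, -1.95) and Psmg4 (61.7 to 15.2 ppm, -1.95), chaperones that build the alpha ring. The exception was Pomp, the chaperone of beta ring assembly, at 127 and 213 ppm (0.74), which came to 0.44 and was not called without cluster 0. Of 9 genes of the transcription and stress route 4 were called higher and 0 lower, beside the same shares of all genes, among them Sqstm1 (1.29), the ubiquitin-binding autophagy receptor, Nfe2l2 (1.02), a stress-activated transcription factor, and Ngly1 (0.83), which deglycosylates Nfe2l1. Nfe2l1, the transcription factor known for the response to proteasome inhibition, was at 53.4 and 50.5 ppm (-0.08, not called).

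Genes of MHC class I processing were mostly higher in enterocyte-like cells, 10 of 14 with 1 lower, against 24.2% of all genes higher and 44.7% lower, with a median of 1.57. They included H2-Q1 (1.41 to 83.4 ppm, 5.13), H2-Q2 (4.03) and H2-K1 (2.16), all class I heavy chain genes, and B2m (265 to 945 ppm, 1.83), the class I light chain. Tap1, whose promoter window overlaps that of Psmb9, rose from 11.8 to 30.6 ppm (1.31), while the aminopeptidase Erap1 was lower (-0.82). Class I heavy chain genes are near-identical in places and could exchange reads. Of 10 interferon response genes 8 were called higher and 0 lower, with a median of 1.51, led by Ifit1 (3.92), Irf7 (3.63) and Isg15 (3.28). MHC class II genes had 0 of 5 called, and Cd74, the class II invariant chain, was at 134 and 136 ppm (0.02). Cell cycle genes were called lower in 12 of 12. All of them but Mcm2 and Mcm3 are also markers on the transit-amplifying list used to name progenitor-like clusters. Their direction was thus largely set by the naming and is no separate result. Of 10 housekeeping genes 4 were called higher and 5 lower.

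By a score of position, 16 proteasome genes were lower in enterocyte-like cells scored as distal than in those scored as proximal. None was higher by the same call rule. Position was a score from 8 distal and 8 proximal genes, none of them a member, and the cells of each barcode set were divided into 3 equal parts by it, giving 1757 proximal, 1755 middle and 1750 distal cells. Of the 41 members 0 were called higher and 16 lower distally, against 18.5% of 7962 genes higher and 18.5% lower. The core had a median log2 difference of -0.54 beside -0.04 for all genes, and 12 of its 31 genes were called lower. Of 9 housekeeping genes 4 were also called lower, 44.4% beside 39% of the members, among them Pgk1 (-1.17), Gapdh (-1.10) and Ppia (-0.77), and Actb was called higher (0.82). At a log2 difference of at least 1 in size, 0 members were called higher, against 7.65% of genes, and 3 lower (Psmb9, Psma4 and Psmb2), against 10.1% of genes; at 0.5, 37% of genes were called in either direction. The level of the middle part lay between the others, with the proximal part highest, for 33 of the 41 members, and with the distal part highest for 1, Psme4.

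Psmb9 had a lowest, median and highest level of 64.0, 78.6 and 88.3 ppm in proximal and of 19.1, 26.4 and 42.4 ppm in distal cells. The ranges do not overlap, and the log2 difference of -1.56 (-1.96 to -0.87 over sets) was the largest in size of the 41. The distal range overlaps the range of 29.7 to 48.5 ppm in progenitor-like cells. Psmb8 had 132, 152 and 172 ppm against 38.0, 80.6 and 140 ppm, with a log2 difference of -0.997 (-1.85 to 0.03). It was not called because barcode set 2 had the opposite sign. Set 2 held few enterocyte-like cells, 124, 39, 6, 66 and 15 in clusters 7, 11, 12, 14 and 15. Set 7 likewise held 51, 24, 44, 22 and 32, so the sign rule rests on small groups there. Psmb10 had 140, 189 and 212 ppm against 110, 142 and 189 ppm, a log2 difference of -0.49 (-0.80 to 0.42) that was likewise not called, and its ranges overlap.

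**Figure D4:**
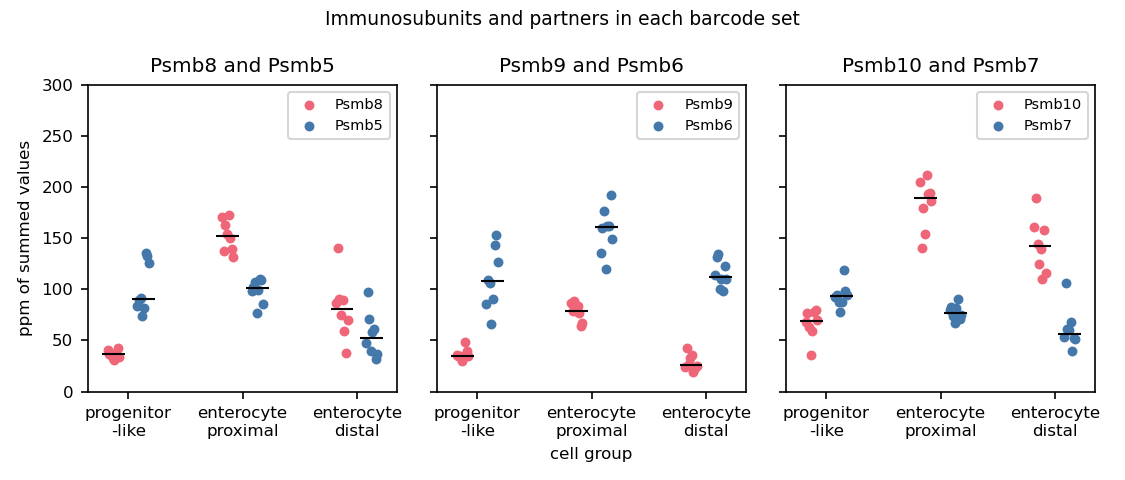
Each point is the level in ppm (vertical axis, from 0) of 1 gene in 1 of 8 barcode sets, for progenitor-like cells and the proximal and distal parts of the enterocyte-like cells; bars are medians, red is the immunosubunit and blue the gene it replaces. Psmb8 has medians of 36.7, 152 and 80.6 ppm and Psmb9 of 35.2, 78.6 and 26.4 ppm in the 3 cell groups.

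The ratio of Psmb9 to Psmb6 was 1.10 lower on the log2 scale in distal cells, a difference of -1.10 (-1.53 to -0.59, lower in 8 of 8 sets). For Psmb8/Psmb5 the difference was -0.13 (-0.50 to 0.28) and for Psmb10/Psmb7 it was 0.05 (-0.34 to 0.37), with sets on both sides of 0. Psmb5 itself was called lower, at 98.5 and 53.4 ppm (-0.87), whereas Psmb6 (153 and 111 ppm, -0.46) and Psmb7 (79.7 and 54.4 ppm, -0.54) were not called.

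By role, 5 of 7 alpha ring genes were called lower distally, with Psma4 (228 to 109 ppm, -1.06), Psma3 (-1.0), Psma2 (-0.88) and Psma1 (-0.87) furthest. Psma5 was at 106 and 46.9 ppm (-1.16) but had 1 set of the opposite sign. Of 7 constitutive beta ring genes 3 were called lower, Psmb2 (129 to 63.5 ppm, -1.01), Psmb5 and Psmb4 (-0.57). None of the 6 ATPases was called, with a median of -0.22. Of 11 lid and base genes 4 were called lower, Psmd12 (-0.82), Psmd6 (-0.80), Psmd8 (-0.78) and Psmd7 (-0.63), along with the base chaperone Psmd10 (-0.81). Both PA28 genes were called lower, Psme1 from 354 to 201 ppm (-0.81) and Psme2 from 379 to 226 ppm (-0.74). Psme4 went the other way, at 97.7 and 138 ppm (0.50, just under the threshold), higher in 8 of 8 sets.

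**Figure D5:**
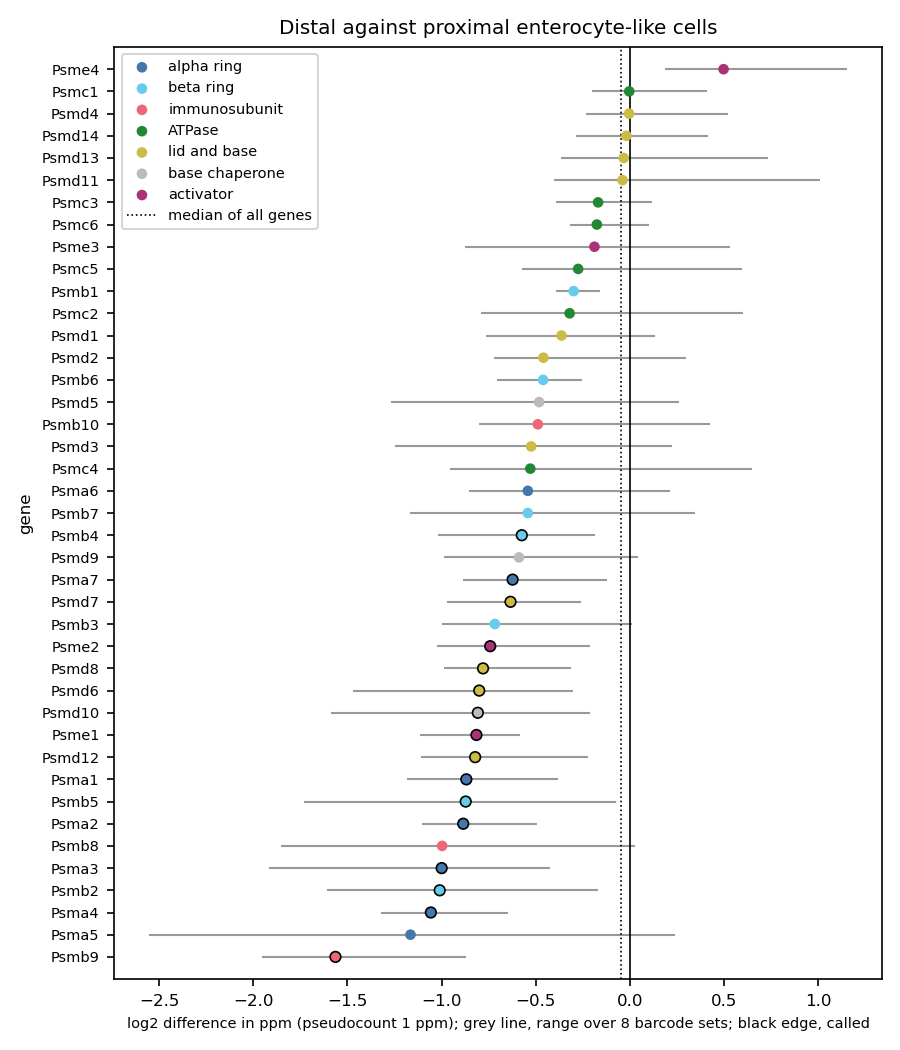
Points give the log2 difference in ppm, distal minus proximal enterocyte-like cells, for the 41 genes at 10 ppm or more, coloured by role, with grey lines for the range over 8 barcode sets, black edges for called genes and a dotted line at the median of all genes, -0.04. Psmb9 is lowest at -1.56, and Psme4 at 0.50 is the member furthest above 0.

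Detected genes and cluster membership moved with the position score. The median cell had 2853 detected genes in the proximal, 2209 in the middle and 1892.5 in the distal part. Cluster 7 held 77.4% of proximal but 2.91% of distal cells. Its leading genes include the proximal scoring genes Gsta1 and Cyp2b10. Those of clusters 11 and 15 include the distal scoring genes Cubn and Tmigd1 respectively. The split of clusters by part is therefore partly set by the score. Clusters 11, 12 and 15 held 32.7%, 27.4% and 30.6% of distal cells, against 5.63%, 1.14% and 0% of proximal cells. Leading genes include Slc5a12 and Lct in cluster 11, Apoa4 and Nt5e in cluster 12, and Slc10a2 and Fabp6 in cluster 15. The distal part is thus a mix of clusters, and whether the score follows position alone was not tested. Psmb9 was at 9.86 ppm in cluster 12, 40.7 ppm in cluster 11 and 35.7 ppm in cluster 15, against 73.3 ppm in cluster 7. Cluster 12 alone was not left out in any setting, so its part in the regional differences was not tested. When cells were matched on detected genes, only 7 sets had enough cells for the sign rule. There 7 members were called lower (5 alpha ring genes, Psmb3 and Psme1) and 1 higher (Psme4), against 10.8% and 17.3% of all genes. Psmb9 then stood at -1.06, Psmb8 at -0.85 and Psme4 was past the threshold. With no rescaling 28 were called lower and 0 higher, against 30.5% and 8.8% of all genes, which shifted the all-gene median to -0.38 from -0.04. Within cluster 7 alone, where the sign rule also used 7 sets, the core median was -0.03 with 0 of 31 called. There 2 members were called lower, Psmb8 (192 to 118 ppm, -0.70) and Psmb9 (88.5 to 57.5 ppm, -0.61), against 2.58% of all genes. Without cluster 7, 14 members were called lower, against 12.3%, and both Psmb8 (-0.59) and Psmb9 (-1.16) were among them. Without cluster 14, 20 were called lower and 1, Psme4, higher, against 18.4% and 19.2% of all genes. Without barcode set 2, 24 members were called in place of 16. The summed markers of goblet cells (1556 and 4633 ppm), Paneth cells (1253 and 4171 ppm) stem cells (220 and 694 ppm) and enteroendocrine cells (371 and 838 ppm) were also higher in distal cells. The summed tuft cell markers (132 and 30.6 ppm) and the median mitochondrial share (9.26% and 7.17%) were lower there. Only 1 of the 10 tuft markers was at 10 ppm or more, so this sum does not describe tuft cells as such. The part of these marker sums and of the mitochondrial share in the result was not tested.

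The related gene lists gave other counts between the distal and proximal parts. Of 14 MHC class I processing genes 2 were called higher distally and 0 lower, against 18.5% of all genes in each direction. The 2 were H2-K1 (551 to 1053 ppm, 0.93) and H2-D1 (0.75), and the list median was -0.26. With no rescaling 1 was called higher and 6 lower, against 8.8% and 30.5% of all genes. Tap1 was at 33.2 and 28.4 ppm (-0.22, not called) where Psmb9 fell by 1.56, and B2m at 854 and 1085 ppm (0.35, not called). MHC class II genes were called higher in 3 of 5, Cd74 (33.9 to 224 ppm, 2.69), H2-Aa (2.11) and H2-Ab1 (1.84), and interferon response genes in 5 of 11, led by Ubd (2.61), Rsad2 (1.24) and Irf7 (1.22), with 0 lower in both lists. Without cluster 7 these counts were 0 of 5, with a median of 0.49, and 1 of 12, where 6.54% of all genes were called higher. Matched on detected genes they were 3 of 5 and 2 of 12, against 17.3% of all genes. Within cluster 7 they were 1 of 2 and 0 of 10, against 5.11%. The share of all genes called higher thus also fell in these settings from 18.5%. Of 11 assembly factors 1 was called lower, Sem1 (-0.57), a small lid subunit, and Pomp was at 233 and 193 ppm (-0.27, not called). Nfe2l2 (413 to 205 ppm, -1.01) and Ddi2 (-0.80), the protease that processes Nfe2l1, were called lower, and Nfe2l1 was not (0.24). Of 10 dissociation stress genes 3 were called higher distally, Fos (1.56), Atf3 (1.53) and Ier2 (0.56), and 0 lower. None of these 10 was called when matched on detected genes or without cluster 7. Within cluster 7 the counts were 0 higher and 2 lower, against 5.11% and 2.58% of all genes.

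Outside the family, the genes whose level over the 18 clusters was most like the summed immunosubunits, among all genes averaging 10 ppm or more, were Idnk (Pearson correlation 0.94), Acy1, Casp1, Aamdc, Cisd3, Chchd7, Ccdc32, Nags, Ctsz and Aqp11 (0.92). Among genes of the lists, Psmb8 correlated with Tap1 at 0.75 and Psmb9 with Tap1 at 0.46. Psme2 correlated with Psmb8 at 0.89 and with Psme1 at 0.84. These correlations describe 18 clusters that share libraries and differ in median detected genes, from 1194 in cluster 3 to 3334 in cluster 17.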

How the data were processed

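Single-cell RNA was measured by droplet sequencing of sorted intestinal epithelial cells. Cell Ranger and build mm10 are named, per the submitters' processing notes, with no version. The deposited matrix holds whole numbers that are not raw counts, since 2 was a more frequent value than 1 in 25.3% of cells, so the authors' values were treated as a score with unknown scaling, and the count model foreseen for raw counts was not used. Summed values per cell ran from 2764 to 9739.

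Cells with under 500 detected genes or over 25% mitochondrial values (2 cells) and 45 called doublets (0.161%, too few for the caller to have worked, so doublets remain possible) were left out. Clustering used scanpy 1.11.5, 2000 variable genes without members, 30 components, 15 neighbours and Leiden resolution 1. To name a cluster, 3 or more listed markers had to reach 10 ppm and 2-fold the level of the remaining cells, and the list's median log2 difference had to exceed that of every rival list by 0.5; stem and transit-amplifying lists both gave progenitor-like. The naming rule was changed after the clusters were seen: 6 lists of cells outside the epithelium were dropped as names and rivals, because globin transcripts had renamed clusters; with them only cluster 7 was enterocyte-like, and that alternative is reported.

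Levels were summed per group in ppm with a pseudocount of 1 ppm. Members, lists and rules were chosen with earlier results of these data known. Always named were Psmb5 to Psmb10, Psme1 to Psme4, Tap1, B2m, Cd74, Nfe2l1 and Pomp; further names were the 10 other called members furthest from 0 in each comparison, up to 3 called genes per direction of each list, and the 10 genes most like the immunosubunits over clusters. Psmb4, Psmb3 and Psma5 in the regional comparison were named after their values were seen, as were the genes listed for motifs and cluster ranges. Of 102 listed genes 1 was not in the table. The comparison script was tested on simulated data. The 4 samples of total epithelium and progenitors were not analysed here.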

Additional observations from a re-analysis of the deposited data

Results flagged for a closer look

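In the 8 barcode sets the log2 difference of Psmb10 between distal and proximal enterocyte-like cells was 0.42 in set 2, above 0, with the nearest other set at -0.29 and the median at -0.33. Set 2 lay further from its neighbour than the spread of 8 values usually allows. Its value rests on few cells, since set 2 held 124 of the 1635 cells of cluster 7 and 39 of the 1103 of cluster 11. Of 45 such groups of 8 values looked at, 1 stood out in this way, and chance gives about 1 in 20.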

How the results depend on the processing

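Values rest on processed scores of 1 pooled sample, so the set range is the only spread and low genes cannot be judged by depth. No paired analysis was possible because the cells could not be tied to the numbered samples; cell groups were instead compared within each barcode set. Of 685 values of named genes under alternatives, 592 stayed within 1 SD over sets, 91 moved and 2 called values reversed; of 175 values of the comparisons, 147 stayed and 28 moved, and for these the cause was not tested. The alternatives that leave out cluster 0, cluster 7 or cluster 14, or let lists of cells outside the epithelium name clusters, were added after seeing the data.

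For enterocyte-like against progenitor-like cells, 10 members were called, and 22 with the stricter cell filter, 20 when member genes were allowed among the variable genes (0 were variable, so only the clustering changed), 25 at resolution 0.5, 23 without cluster 0, 3 when called at 1 or more, and 9 to 10 without each barcode set. The Psmb9/Psmb6 difference of 0.29 became 0.083 with the stricter filter, 0.068 at resolution 0.5, -0.021 without cluster 7 and 0.64 with the outside lists, and was 0.25 to 0.37 without each set; Psmb8/Psmb5 was 1.94 to 2.09 and Psmb10/Psmb7 1.66 to 1.78 without each set.

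For distal against proximal cells, 16 members were called, and 28 with no rescaling, 8 matched on detected genes, 3 when called at 1 or more, 25 at resolution 0.5, 2 with the outside lists, and 16 to 24 without each set. Psmb8/Psmb5 (-0.13) was -0.61 at resolution 0.5, -0.55 with proximal scoring genes alone, 0.35 with distal ones alone, 0.23 without cluster 7, -0.42 with the outside lists and -0.20 to -0.0042 without each set. Psmb9/Psmb6 (-1.10) was -0.75 with distal scoring genes alone, -0.75 without cluster 7, -0.34 with the outside lists and -1.15 to -1.0 without each set. Psmb10/Psmb7 (0.053) was -0.19 at resolution 0.5, -0.18 with proximal scoring genes alone, 0.33 with distal ones alone and -0.046 to 0.092 without each set. Psmd6 and Psmd7 reversed to 0.059 and 0.091 with the outside lists. With those lists only cluster 7 is enterocyte-like. For distal against proximal cells they therefore repeat the comparison within cluster 7 alone and are not a separate alternative.

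The summed immunosubunits in the highest cluster exceeded the median cluster by 1.01, and by 1.25 with no rescaling, 1.35 with the stricter filter, 1.39 at resolution 2 and 0.97 to 1.08 without each set.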
